A study of Mus musculus with 16 samples.

Results

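Libraries of retinal ganglion cells from mice with clinical signs of experimental autoimmune encephalomyelitis (EAE) were compared with libraries from mice without signs. EAE is a model of inflammatory demyelination that can damage the optic nerve and retina. The libraries titled onset (n = 3) and peak (n = 4) formed the symptomatic arm of 7, and those titled naïve (n = 5) and presymptomatic (n = 4) formed the symptom-free arm of 9, so that all 16 of the 16 libraries in the series were used. The choice rested on the titles alone. The comparison asks which changes in chromatin accessibility go with clinical signs, whichever symptomatic stage they come from.

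Female mice were used, with EAE induced at 7 to 8 weeks of age, and the ganglion cells of their eyes were isolated by FACS. Naïve mice are labelled as controls, while presymptomatic, onset and peak mice are all labelled EAE. The symptom-free arm therefore holds untreated and induced mice together. The sources used here do not give strain, genotype, the day of each stage or the sorting marker. Nor do they tie a library to an animal, and p-values therefore measure only how these libraries vary, which may be partly technical. They number presymptomatic replicate 4 and onset replicate 3 as samples 16 and 17, after the peak libraries.

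Retinal ganglion cells are the output neurons of the retina, and their axons form the optic nerve. In EAE, T cells primed against myelin enter the central nervous system and recruit macrophages, and the optic nerve is one of their sites of attack. ATAC-seq uses a transposase that inserts sequencing adapters where DNA is accessible. Active genes tend to give more insertions across promoters, enhancers and gene bodies than silent ones, and the mitochondrial genome, which has no nucleosomes, takes up many insertions.

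The deposited table counts reads over gene bodies that start and end 1000 bp inside the gene, so promoters of longer genes are not counted. For genes under 2000 bp the counted window lies around the middle, and under 1000 bp it is longer than the gene and takes in its start and both flanks. Reads in nuclear intervals ranged from 1.58 to 15.0 M (megareads) in the symptomatic libraries and from 2.23 to 15.1 M in the symptom-free ones. The 4 peak libraries were shallow, with 3.39, 3.702, 3.45 and 1.58 M. Values below are CPM, counts per megaread of library size after TMM scaling, with the lowest, median and highest library of an arm, and fold changes are log2 of symptomatic over symptom-free with their standard error (SE). In bulk libraries such as these, fewer cells of a type and less signal per cell cannot be told apart.

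No gene passed the test. Of 29902 genes tested with edgeR's quasi-likelihood test, 0 (0%) had a Benjamini-Hochberg adjusted p under 0.05, and the lowest adjusted p was 0.999. At an unadjusted p under 0.05 there were 1150 genes (3.85%), of which 621 (2.08%) were higher and 529 (1.77%) were lower in the symptomatic arm. DESeq2 also called 0 genes with 1407 at an unadjusted p under 0.05, limma voom called 0 with 1697, and limma-trend called 0 with 1264. Without peak replicate 3, edgeR called 0 genes with 2811 at an unadjusted p under 0.05, of which 963 were higher and 1848 lower. Scaling by total counts alone moved the median of all genes from 0.01 to 0.20 on the log2 scale. It moved the unadjusted split to 1214 higher and 91 lower, still with 0 called. Those totals include mitochondrial reads, whose share differs between libraries, and whether the shift follows that share was not tested. With TMM on nuclear intervals alone, the median was -0.01 and the split 547 higher and 612 lower, with 0 called. TMM centres fold changes near 0, so that setting cannot show what moved the median under total counts.

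The precision of the estimates grew with signal. The middle 90% of genes had fold changes between -0.58 and 0.57, and the median half-width of the 95% interval was 0.60. The 95% interval lay within 1 log2 unit on either side of no change for 64.1% of the genes tested and for 95.4% of the 10077 genes with a mean of at least 10 CPM. In the plot of change against mean signal, the spread narrows as signal grows.

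**Figure D1:**
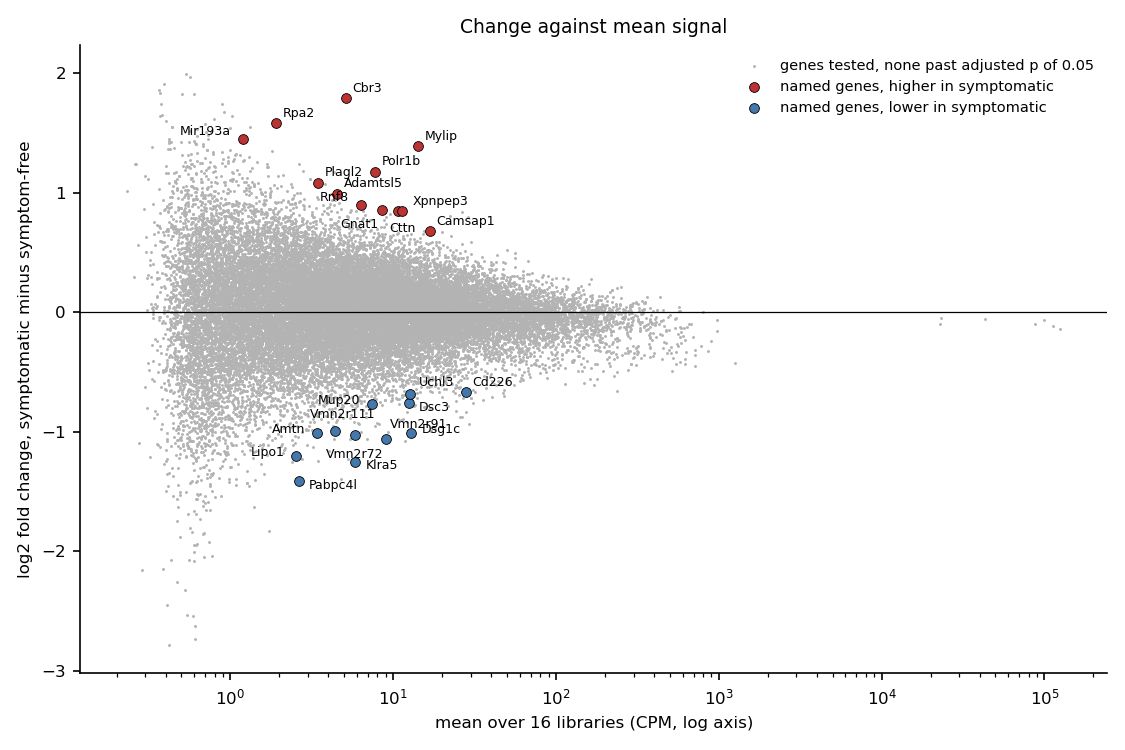
Log2 fold change of the symptomatic over the symptom-free arm (y axis) against the mean CPM over 16 libraries (x axis, log scale) for the 29902 genes tested. Red and blue points mark the genes named in the text; the middle 90% of genes lies between -0.58 and 0.57, and the points on the far right are mitochondrial genes.

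Libraries were about as alike between arms as within them. Those of the same arm had a mean Pearson correlation of log2 CPM of 0.904, against 0.901 between arms, a difference of 0.00374 (exact permutation test over 11440 assignments, two-sided p = 0.299). Within the symptomatic arm the mean was 0.886 and within the symptom-free arm 0.915. Of 8 library measures compared by the same exact test, none had an adjusted p under 0.67. The mitochondrial share of reads in intervals was 44.1% ± 18.7 (SD, n = 7) in symptomatic and 48.4% ± 9.09 (SD, n = 9) in symptom-free libraries (exact permutation p = 0.593, adjusted p = 0.677). It was lowest, at 8.36%, in onset replicate 3, and 34.4% to 64.7% in the other 15 libraries.

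**Figure D2:**
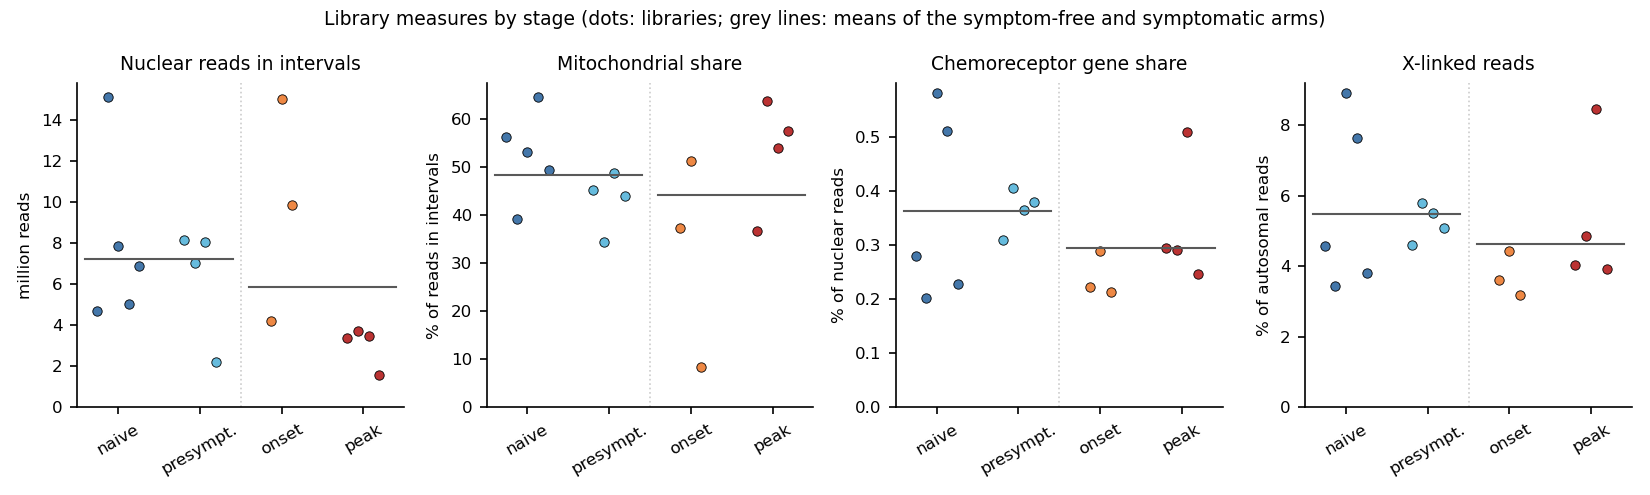
Nuclear reads in intervals, the mitochondrial share, the share of nuclear reads in olfactory and vomeronasal receptor genes, and X-linked reads relative to autosomal reads, for each library by stage; grey lines are arm means. Onset replicate 3 has the lowest mitochondrial share (8.36%), and naïve 3, naïve 4 and peak 3 have the highest receptor and X-linked shares.

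2 of the 29902 genes (0.00669%) had all 7 symptomatic values above all 9 symptom-free values, and 0 had all of them below. One was Mir193a, the gene of microRNA 193a, a small RNA that lowers the output of target messages paired with its seed. The other was an uncharacterised transcript of 7159 bp on chromosome 2, whose symptomatic values began at 1.00 CPM where the symptom-free ones ended at 0.946. With 29902 genes and 11440 possible assignments of libraries to the arms, some genes can separate by relabelling alone. The count of 2 was not tested against this and is a description only. Mir193a lies at chr11:79711969-79712034 on the plus strand, identical in the deposited table and in RefSeq's GRCm38.p6 annotation. Its 66 bp were counted as a window of 1934 bp, so the value is mostly that of the flanking DNA, including the start of the gene. The hairpin and its mature products are shown because this was the one gene with a described product that separated the arms, with seeds (bases 2 to 8) in capitals, from RefSeq (GRCm38.p6).
microRNA 193a hairpin: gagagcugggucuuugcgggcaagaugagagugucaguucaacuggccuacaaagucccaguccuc
mmu-miR-193a-5p: uGGGUCUUugcgggcaagauga
mmu-miR-193a-3p: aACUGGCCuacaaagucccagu
mmu-miR-193b-3p: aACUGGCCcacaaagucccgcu

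Mir193a stood at 2.01, 1.58 and 1.47 CPM in the onset libraries and at 1.56, 1.71, 1.77 and 3.11 CPM in the peak libraries. The naïve libraries had 0.855, 0.754, 0.306, 1.05 and 0.158 CPM, and the presymptomatic ones 0.851, 0.870, 0.952 and 0 CPM. The ranges of the arms touched no common value, but these levels rest on 10 to 43 reads per symptomatic and 0 to 22 per symptom-free library. The log2 fold change was 1.45 ± 0.46 (SE, 95% interval 0.51 to 2.39), with an unadjusted p of 0.00357 in edgeR's test and an adjusted p of 0.999. Against the same 9 symptom-free libraries it was 1.31 at onset and 1.56 at peak.

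Mir193b, on chromosome 16, encodes a 3p product with the same seed as shown above. It did not follow Mir193a, at 0.642 to 2.46 CPM in symptomatic against 0 to 4.18 CPM in symptom-free libraries (log2 fold change -0.26 ± 0.45). Among neuronal microRNA genes, the 3 copies of Mir124a, a microRNA of mature neurons, had log2 fold changes of 0.43, 0.19 and 0.30, and the 3 copies of Mir9 had 0.38, -0.11 and -0.02. The cluster of Mir183, Mir96 and Mir182, typical of photoreceptors, had 0.32 ± 0.56, 0.23 ± 0.57 and 0.61 ± 0.56, each with a 95% interval that includes 0. The counted windows of Mir183 and Mir96 largely overlap, so their values are not separate measurements. The 3 genes had 0.89, 0.79 and 0.84 at onset and -0.57, -0.61 and 0.34 at peak. Of leukocyte microRNA genes, Mir142 had 1.04 ± 0.68 and Mir223 -0.22 ± 0.58, both with 95% intervals that include 0. Over all 796 microRNA genes tested, 50.1% were higher in the symptomatic arm with a median of 0.00, and 0 were called.

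By a rule of smallest p, 12 genes were named in each direction; with Mir193a, all 25 had an adjusted p of 0.999 in edgeR's test. Among those higher in the symptomatic arm, Polr1b, which encodes the second largest subunit of RNA polymerase I, the enzyme that transcribes ribosomal RNA, had the smallest p (0.000144, edgeR, unadjusted). It lies at chr2:129100993-129128060. Its symptomatic values were 6.56, 9.17 and 19.6 CPM (lowest, median, highest), against 3.22, 4.39 and 10.4 CPM in the symptom-free arm, for a log2 fold change of 1.18 ± 0.27. The arms overlapped through naïve replicate 4 alone, which had the 10.4 CPM and stood above 4 of the 7 symptomatic libraries.

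Rnf8 and Rpa2 act on DNA. Rnf8, a ubiquitin ligase recruited to DNA double-strand breaks (chr17:29614789-29641664), had 6.12, 8.71 and 10.4 CPM against 2.79, 4.91 and 7.09 CPM (0.89 ± 0.24). Only 1 symptomatic library, onset replicate 2, fell inside the symptom-free range. Rpa2, a subunit of the replication protein A complex that coats single-stranded DNA, had 0.642, 2.76 and 5.67 CPM against 0, 0.870 and 1.86 CPM (1.58 ± 0.46), with peak replicate 3 inside the symptom-free range. These are few reads, and the wide SE reflects it.

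Cttn and Camsap1 act on the cytoskeleton. Cttn, encoding the actin-branching regulator cortactin, had 8.25, 13.9 and 24.1 CPM against 4.37, 7.80 and 11.8 CPM (0.85 ± 0.23). Camsap1, encoding a protein that binds microtubule minus ends, had 15.0, 22.2 and 26.8 CPM against 6.74, 13.1 and 17.6 CPM (0.67 ± 0.20). For both, some symptomatic libraries lay within the symptom-free range.

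Mylip and Cbr3 had 3 libraries far above the rest. Mylip encodes the ubiquitin ligase that marks the LDL receptor for degradation (chr13:45389742-45411940). It had 52.0 CPM in onset replicate 1, 33.2 in peak replicate 1 and 30.5 in peak replicate 3, and between 4.90 and 12.4 CPM in the other 13 libraries of either arm. Cbr3, encoding a carbonyl reductase (chr16:93683219-93690991), had 22.2, 15.7 and 11.7 CPM in the same 3 libraries and 1.34 to 5.20 CPM in the other 13. Their log2 fold changes of 1.39 ± 0.37 and 1.79 ± 0.47 thus average 3 high libraries with 4 that lay within or near the symptom-free range. Polr1b was also highest in these 3 libraries, at 16.7, 19.6 and 13.0 CPM, against 3.22 to 10.4 CPM in the other 13. The nearest tested genes on either side of Cbr3, Setd4 and Dopey2, had log2 fold changes of -0.09 and 0.06. Across all genes named by smallest p or lack of overlap, 44 of 50 such neighbours (88%) changed in the direction of the named gene. Of all adjacent tested pairs that do not overlap, 62.05% shared a direction.

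The remaining genes named as higher were of mixed function. Plagl2, a zinc finger transcription factor, had 1.08 ± 0.30, and Adamtsl5, a secreted matrix protein, had 0.99 ± 0.29. Xpnpep3, a mitochondrial aminopeptidase, had 0.84 ± 0.25, and 0.54 without peak replicate 1. Gnat1, the rod transducin alpha subunit, had 6.10, 10.4 and 24.2 CPM against 4.25, 6.29 and 8.76 CPM (0.86 ± 0.25), and 0.53 without onset replicate 3, which held the 24.2 CPM.

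**Figure D3:**
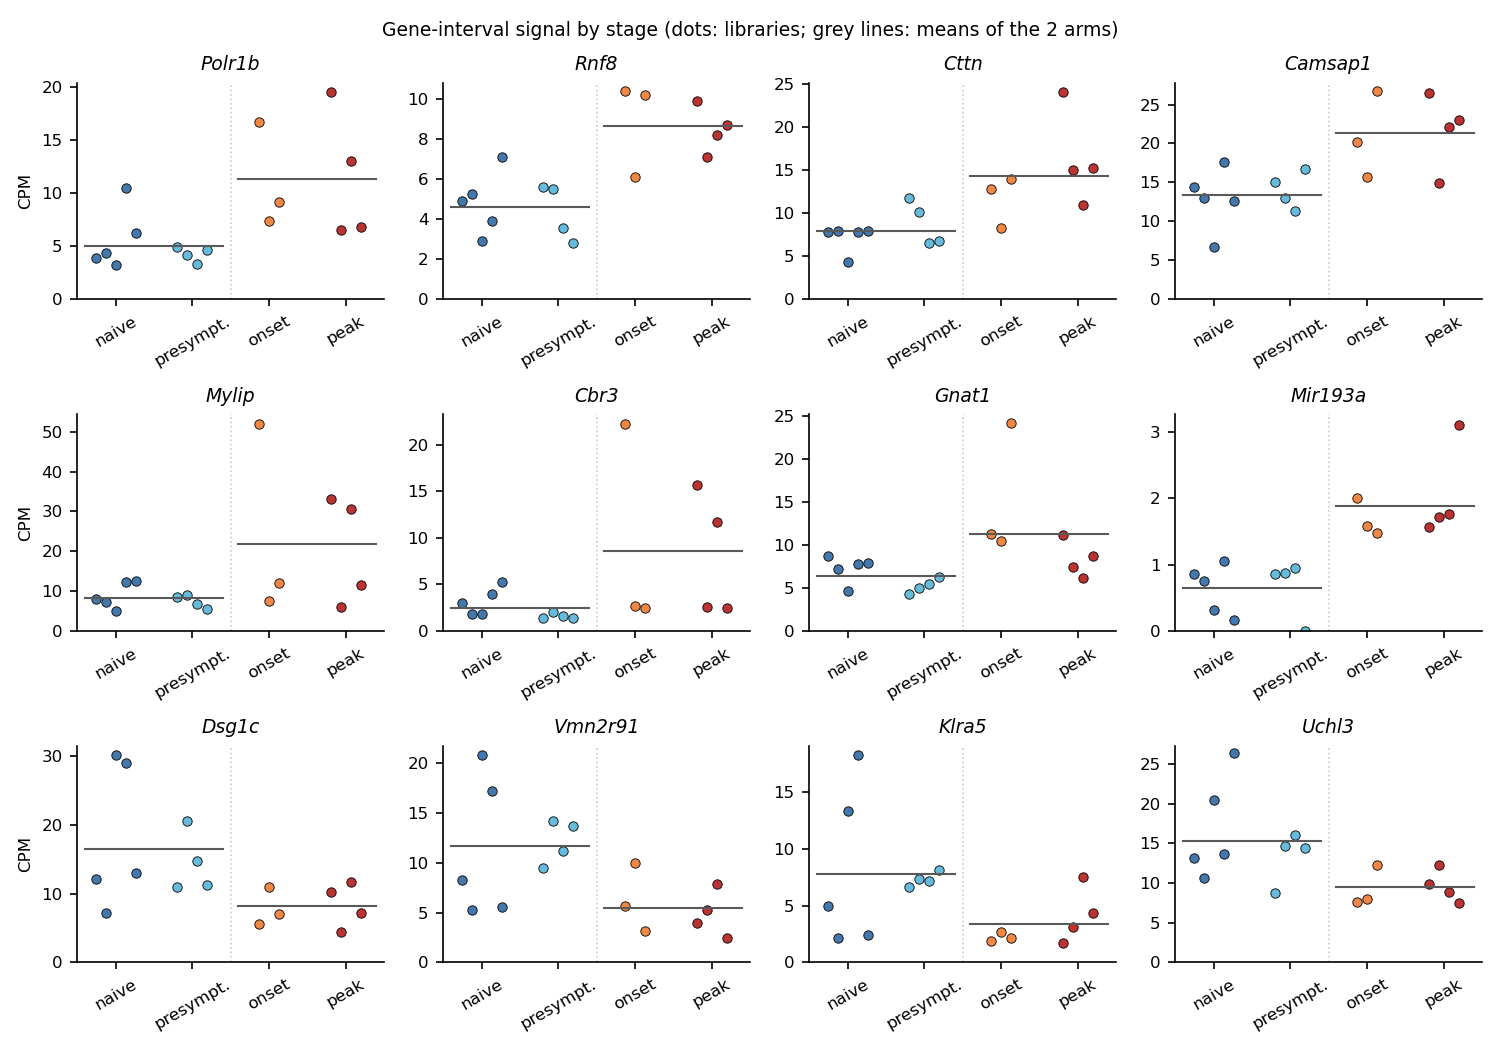
CPM of 12 named genes in each library, by stage; grey lines are arm means. Mir193a separates the arms, Mylip and Cbr3 stand high in the same 3 symptomatic libraries, and Dsg1c, Vmn2r91 and Klra5 are highest in naïve 3 and naïve 4.

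Of the genes named as lower in the symptomatic arm, Dsg1c and Dsc3 encode desmosomal cadherins of stratified epithelia. Dsg1c had 4.42, 7.15 and 11.7 CPM in symptomatic against 7.17, 12.9 and 30.2 CPM in symptom-free libraries (-1.02 ± 0.27), and Dsc3 had -0.76 ± 0.22. Vmn2r91, a vomeronasal receptor gene (chr17:18085057-18136643), had 2.49, 5.27 and 9.97 CPM against 5.28, 11.2 and 20.8 CPM (-1.06 ± 0.30). Vmn2r72 and Vmn2r111, of the same receptor family, had -1.03 ± 0.34 and -0.99 ± 0.33.

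Klra5, a receptor of natural killer cells, had 1.70, 2.68 and 7.55 CPM against 2.13, 7.14 and 18.2 CPM (-1.26 ± 0.40), and Cd226, an activating receptor of natural killer and T cells, had -0.67 ± 0.20. Mup20, a major urinary protein, had -0.77 ± 0.26, Lipo1, a lipase family member, -1.20 ± 0.38, and Amtn, an enamel protein, -1.01 ± 0.31. Pabpc4l, of the poly(A)-binding family, had -1.41 ± 0.46. Uchl3, a ubiquitin hydrolase, had 7.46, 8.83 and 12.3 CPM against 8.75, 14.4 and 26.3 CPM (-0.69 ± 0.22), and -0.43 under scaling by total counts. The arms overlapped for every one of these 12 genes. Vmn2r, Klra, Mup and Lipo genes have near-identical copies, and how reads with several alignments were counted is not stated, so their values are uncertain.

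Some of the genes named as lower were highest in the same libraries. In naïve replicates 3 and 4, Dsg1c stood at 30.2 and 29.0 CPM, Vmn2r91 at 20.8 and 17.2 CPM and Klra5 at 13.3 and 18.2 CPM, above all other libraries. Others differed: Uchl3 was highest in naïve replicate 5, at 26.3 CPM, and Cd226 and Vmn2r111 in presymptomatic replicate 4, at 49.4 and 12.6 CPM. Naïve replicates 3 and 4, with peak replicate 3, had the highest share of nuclear reads in olfactory and vomeronasal receptor genes, whose known expression is mainly in the nose: 0.580%, 0.511% and 0.508%. Peak replicate 3 had Dsg1c at 11.7, Klra5 at 7.55 and Vmn2r91 at 7.87 CPM, all within the symptom-free range. For Dsg1c and Klra5 it was the highest symptomatic library, and for Vmn2r91 it was not. The share was 0.295% ± 0.100 (SD, n = 7) in the symptomatic and 0.362% ± 0.125 (SD, n = 9) in the symptom-free arm (exact permutation p = 0.263, adjusted p = 0.677). With that share as a covariate, the log2 fold change of Dsg1c was -0.63, of Klra5 -0.64, of Mup20 -0.51, of Dsc3 -0.54, of Cd226 -0.46, of Amtn -0.86, of Lipo1 -0.88 and of Uchl3 -0.68. The 3 vomeronasal receptor genes are part of that share, so no such value is given for them. The values of Polr1b and Cbr3 were then 1.23 and 1.78. Without onset replicate 3 and these 3 libraries, a choice made after seeing the data, edgeR called 0 genes with 1120 at an unadjusted p under 0.05, and Vmn2r72 had -0.55.

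Whole classes of genes followed the same libraries. Of 682 receptor genes tested, 20.8% were higher in the symptomatic arm, with a median log2 fold change of -0.35, against 51.2% and 0.01 over all genes tested. Of 1099 X-linked genes, 17.4% were higher, with a median of -0.25, while the medians of the autosomes lay between -0.05 and 0.13. The X-linked median was -0.63 at onset and -0.04 at peak, and the receptor median -0.73 and -0.14. X-linked reads were 4.65% ± 1.77 (SD, n = 7) of autosomal reads in symptomatic and 5.49% ± 1.78 (SD, n = 9) in symptom-free libraries (exact permutation p = 0.354, adjusted p = 0.677). They were 8.92% in naïve 3, 8.47% in peak 3 and 7.66% in naïve 4, and 3.18% to 5.81% in the other 13.

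Those 3 libraries moved the X-linked and receptor medians in opposite ways, since they sit in both arms. The X-linked median was -0.50 without peak replicate 3, -0.11 without naïve replicate 3 and 0.01 with the receptor share as covariate. The receptor median was -0.61 without peak replicate 3 and -0.18 without naïve replicate 3. Without naïve 3, naïve 4 and peak 3, the X-linked share was 4.01% in 6 symptomatic and 4.69% in 7 symptom-free libraries (exact permutation p = 0.129). Genes spanning 300 kb or more had a median of -0.08 with 28.8% higher among 576, and 0.06 under scaling by total counts.

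**Figure D4:**
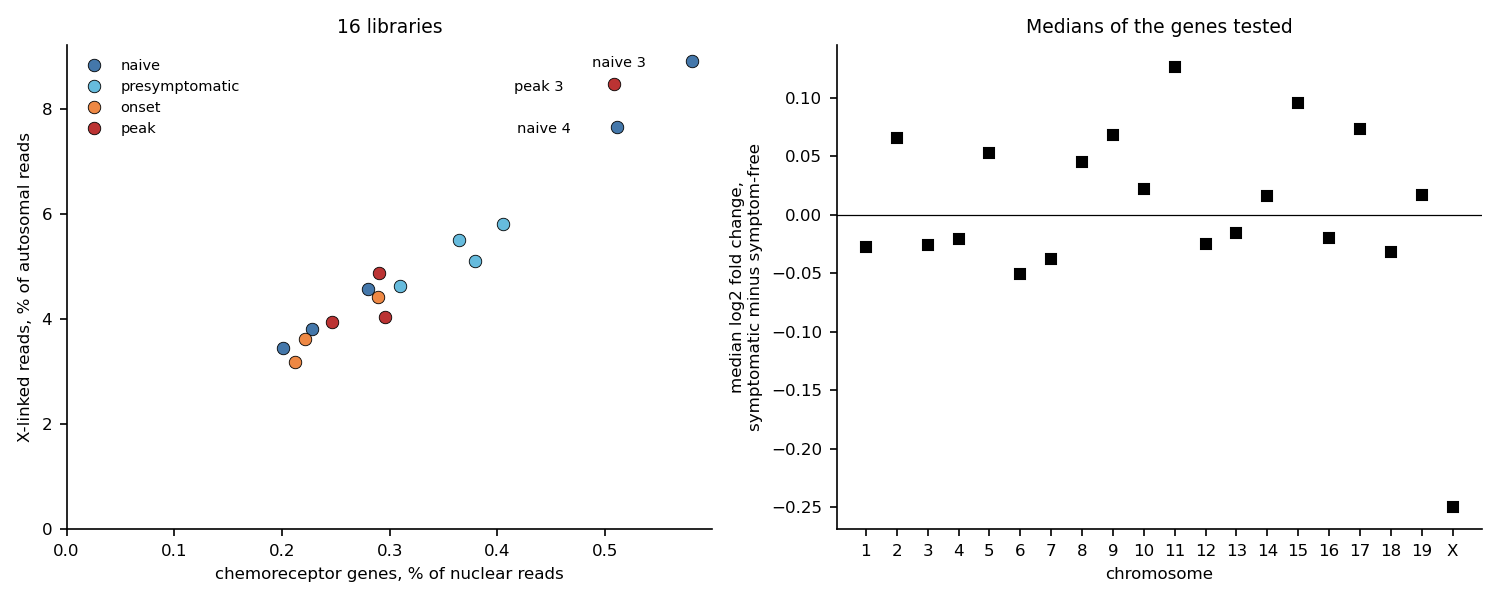
Left, X-linked reads as a percentage of autosomal reads (y axis) against the receptor gene share of nuclear reads (x axis) in 16 libraries. Right, the median log2 fold change of the genes tested on each chromosome; naïve 3, peak 3 and naïve 4 stand apart on the left, and the X chromosome, at -0.25, lies below the autosomes on the right.

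Genes that define retinal ganglion cells were split evenly. The 34 markers all passed the filter on low counts. Of them 17 were higher and 17 lower. Their median was 0.01, and 0 had an unadjusted p under 0.05. Rbpms, an RNA-binding protein used to mark all ganglion cells, had 0.09, Thy1, a surface protein used to sort them, 0.08, and Pou4f1, a transcription factor of their identity, -0.01. Slc17a6, which loads glutamate into synaptic vesicles, had -0.18. The largest values were 0.80 ± 0.56 for Pou4f2 and 0.45 ± 0.25 for Rbpms2. As a check of the labelled cell type, the median gene-body signal of the ganglion cell list was 0.57 CPM per kb, above the 0.35 of all genes tested. It was higher for rods (0.62) and for amacrine and horizontal cells (0.71). It was lower for the other 8 cell type lists, from 0.47 for Müller glia and astrocytes to 0.29 for microglia and macrophages.

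Rod genes were higher in the symptomatic arm through the onset libraries. Of 24 rod genes tested, of 25 listed, 21 were higher, with a median of 0.52, and 8 had an unadjusted p under 0.05, where 2.08% of all genes did so upward; 0 were called. The summed rod signal was 377 to 991 CPM in symptomatic and 421 to 626 CPM in symptom-free libraries. The 991 CPM came from onset replicate 3, the library with 8.36% mitochondrial reads. The rod median was 0.26 when that library was left out. With the mitochondrial share as a covariate, the median log2 fold change of rods was 0.33. The median was 0.96 at onset and -0.02 at peak.

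The rod genes named act in phototransduction, in outer segment discs or in setting rod fate. Guca1b, an activator of guanylate cyclase, had 0.93 ± 0.34, and Nrl, the transcription factor that sets rod fate, 0.71, with 1.43 at onset and -0.42 at peak. Prph2, a protein of outer segment discs, had 0.80 ± 0.33, and 0.06 at peak alone. Gngt1, the rod transducin gamma subunit, had -0.36 ± 0.40.

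Lists of other retinal cells had medians from -0.12 to 0.18, against 0.01 for all genes tested, of which 51.2% were higher. Cone genes had a median of 0.18 with 9 of 16 higher, bipolar genes 0.05 with 11 of 20, and amacrine and horizontal genes -0.10 with 7 of 22. Genes of Müller glia and astrocytes had -0.12 with 6 of 19 higher, endothelial genes 0.02 with 10 of 19, pigment epithelium 0.01 with 7 of 13 and oligodendrocytes 0.02 with 9 of 15. The medians of bipolar, endothelial and oligodendrocyte genes were 0.27, 0.17 and 0.20 under total counts, where all genes had 0.20. Under that scaling amacrine and horizontal genes had 0.10 and glial genes 0.03, still below the median of all genes.

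Leukocyte lists had medians on either side of that of all genes tested, 0.01, of which 51.2% were higher. Microglia and macrophage genes had a median of -0.11, with 4 of 16 higher, and 0.10 under total counts. Adgre1, which encodes the macrophage antigen F4/80, had 13.5, 18.3 and 38.7 CPM in symptomatic against 17.5, 28.5 and 50.8 CPM in symptom-free libraries (-0.57 ± 0.24). Csf1r, the receptor for the growth factor that macrophages need, had -0.21 ± 0.21, and Tmem119, a marker of resident microglia, 0.84 ± 0.57. Lymphocyte genes had a median of 0.08 with 11 of 19 higher, and Cd8b1, the beta chain of the cytotoxic T cell co-receptor, -0.71 ± 0.31. The summed lymphocyte signal was 87.4 to 120 CPM in symptomatic and 90.0 to 125 CPM in symptom-free libraries, so the arms overlapped.

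Inflammatory response lists had medians from 0.04 to 0.19. Of 42 interferon response genes, 24 were higher, with a median of 0.04 and 0 at an unadjusted p under 0.05. Ifit3, an interferon-induced antiviral gene, had 1.38, 3.73 and 5.13 CPM against 1.38, 2.11 and 3.61 CPM (0.61 ± 0.31), and Gbp2, a guanylate-binding protein, -0.46 ± 0.28. Antigen presentation genes had a median of 0.19 with 12 of 19 higher. The class II genes H2-Aa, H2-Ab1 and H2-Eb1 had 1.27 ± 0.69, 0.94 ± 0.54 and 0.45 ± 0.26, each with a 95% interval that includes 0, and H2-Aa did not exceed 1.87 CPM in any library. The 26 genes of NF-kB and cytokines had a median of 0.08. There Il1a and Cd40 had 0.92 ± 0.42 and 0.71 ± 0.33, and the adhesion molecule Vcam1 -0.59 ± 0.27, the 3 members with an unadjusted p under 0.05. Complement genes had a median of 0.07 with 13 of 18 higher.

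**Figure D5:**
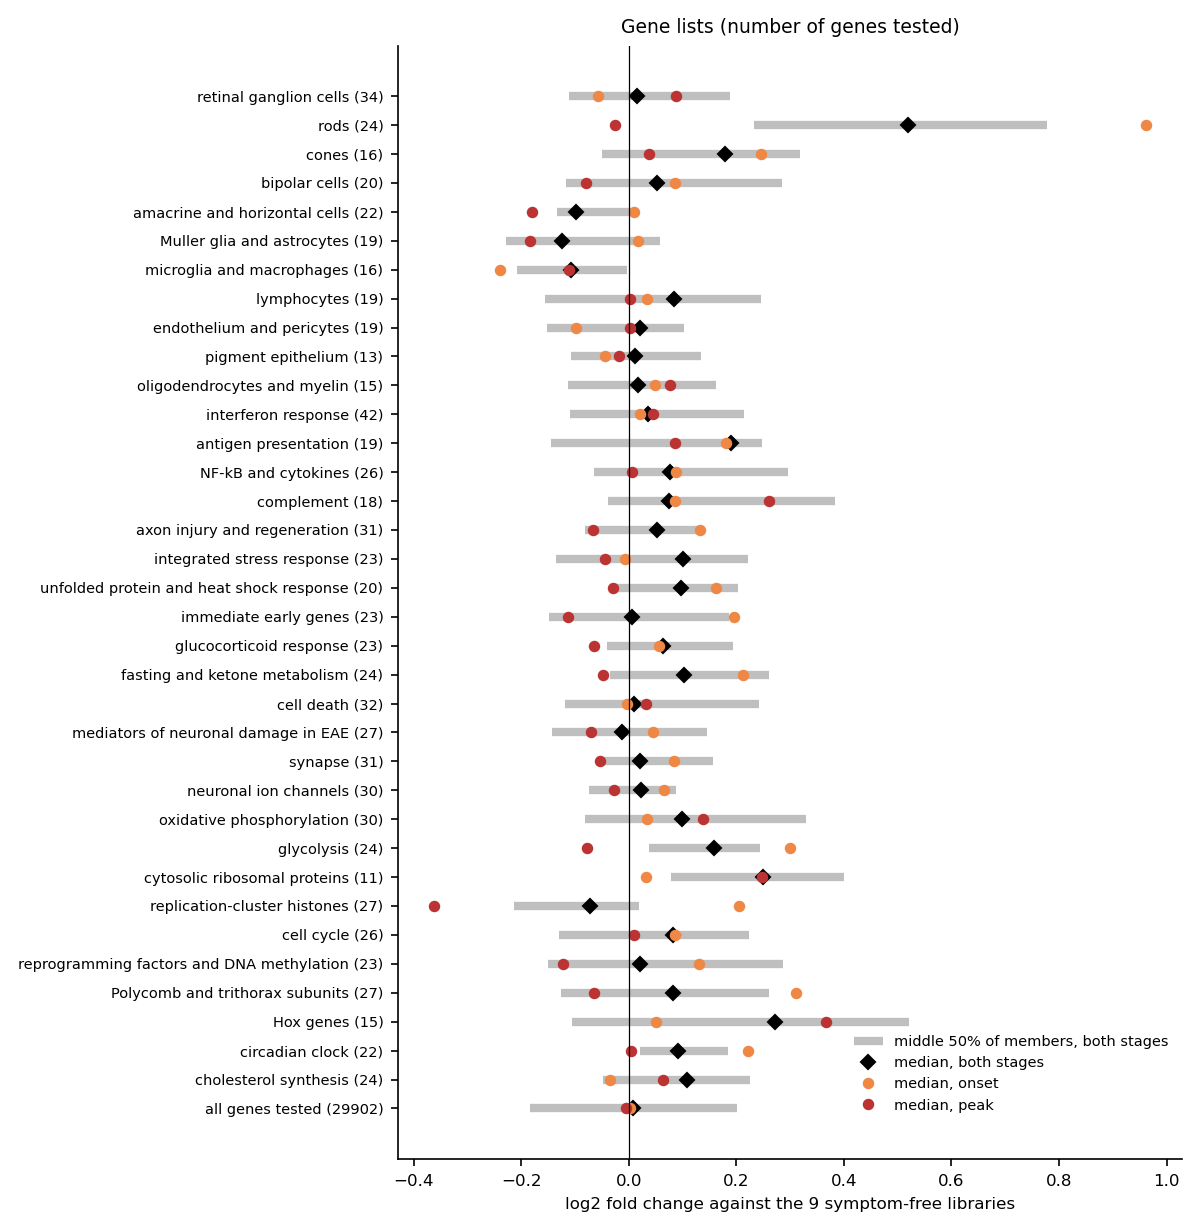
Median log2 fold change of 35 gene lists and of all genes tested (black diamonds, both symptomatic stages; orange, onset; red, peak), each against the same 9 symptom-free libraries; grey bars hold the middle 50% of members. Rod genes lie farthest right, at 0.52 for both stages and 0.96 for onset, and all genes tested have 0.01.

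Genes of neuronal injury and survival were evenly split. The 31 genes of axon injury and regeneration had a median of 0.05, with 18 higher. Map3k12, the kinase DLK that relays axon damage to the nucleus, had 0.39 ± 0.23, Sarm1, the NAD-consuming executor of axon degeneration, 0.35 ± 0.30, and Klf4, a transcription factor that limits axon growth, -0.37 ± 0.24. The 32 cell death genes had a median of 0.01. Among them Gpx4, which protects membrane lipids from peroxidation, had a median of 17.1 and a highest value of 35.8 CPM against 13.7 and 22.6 CPM (0.52 ± 0.22), with 0.93 at onset and 0.07 at peak. Bcl2l1, the anti-apoptotic Bcl-xL, had 0.29 ± 0.16.

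Of 27 genes proposed as mediators of neuronal damage in EAE, 13 were higher with a median of -0.01, or 0.17 under total counts. Scn8a, the sodium channel of nodes and axon initial segments, had 39.7, 46.2 and 67.0 CPM against 24.2, 39.5 and 47.8 CPM (0.42 ± 0.16, edgeR, unadjusted p 0.0137). It was 0.37 at onset and 0.46 at peak, and 4 of the 7 symptomatic libraries lay within the symptom-free range. Asic1, an acid-sensing channel, had 0.43 ± 0.24. All 30 neuronal ion channel genes had 95% intervals within 1 log2 unit of no change, as did 29 of 31 synapse genes, and both lists had a median of 0.02.

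Stress and metabolic lists had small positive medians with both stages pooled. The integrated stress response had a median of 0.10 with 14 of 23 higher, and the unfolded protein and heat shock responses 0.10 with 15 of 20, where Hsf1, the master factor of the heat shock response, had 0.65 ± 0.30. Oxidative phosphorylation genes had 0.10 with 17 of 30 higher, and glycolysis genes 0.16 with 19 of 24. Hk2, the inducible hexokinase, had a median of 21.5 and a highest value of 27.9 CPM against 16.3 and 20.5 CPM (0.39 ± 0.17). The glycolysis median was -0.02 with the receptor share as covariate and 0.05 without onset replicate 3. Cholesterol synthesis had 0.11 with 17 of 24 higher, where Sc5d had 0.76 ± 0.33. Genes of fasting and ketone metabolism had 0.10 with 16 of 24 and glucocorticoid response genes 0.06 with 12 of 23. At peak alone the medians of 5 of these lists were below 0: glycolysis -0.08, fasting -0.05, glucocorticoid -0.06, integrated stress -0.04 and unfolded protein -0.03. At onset alone integrated stress (-0.01) and cholesterol synthesis (-0.03) were below 0 and the others above. The pooled median of integrated stress, 0.10, was thus above its median at either stage. In these 7 lists, as in all 35, edgeR called 0 genes.

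Activity and chromatin lists differed in how they split. Immediate early genes had a median of 0.01 with 13 of 23 higher, where Jund had 0.43 ± 0.23 and Bdnf -0.21 ± 0.19. The circadian clock list had 0.09 with 17 of 22 higher, and all 22 intervals lay within 1 log2 unit. Polycomb and trithorax subunits had 0.08 with 17 of 27 higher, where Ezh2, the methyltransferase of Polycomb repressive complex 2, had 0.42 ± 0.22. Reprogramming factors and DNA methylation enzymes had 0.02 with 12 of 23 higher. Replication-cluster histones, short genes counted with flanks, had -0.07 with 9 of 27 higher and a sign that changed between settings (-0.31 to 0.14). Their median was 0.20 with 21 of 27 higher at onset, and -0.36 with 3 of 27 higher at peak. Medians of most other lists also changed sign between settings. Only rods, cones, unfolded protein and heat shock responses, cytosolic ribosomal proteins and Hox genes kept theirs. Of the 37 Hox genes 15 were tested, with a median of 0.27, and of 30 cytosolic ribosomal protein genes 11, with 0.25; most members of these lists did not pass the filter on low counts.

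The symptomatic stages were also fitted apart, each against the same 9 symptom-free libraries, so the results share their controls. edgeR called 0 genes at onset (0%) with 1728 (5.78%) at an unadjusted p under 0.05, and 0 at peak (0%) with 1374 (4.6%). The difference between the stages, peak minus onset, had 0 genes called (0%) with 2115 (7.07%) at an unadjusted p under 0.05 and a lowest adjusted p of 0.111. Of the rod list, 11 of 24 members had an unadjusted p under 0.05 for that difference. Esrrb, an orphan nuclear receptor that rods need, stood at 84.3, 93.1 and 148 CPM at onset and 63.1, 52.0, 63.0 and 80.8 CPM at peak. Mitochondrial genes had a median of -0.79 at onset and 0.23 at peak, and the 9 intervals tested had -0.10 with both stages pooled. The mitochondrial share was 37.2%, 51.3% and 8.36% in onset replicates 1, 2 and 3, against 34.4% to 64.7% in the symptom-free libraries.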

How the data were processed

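ATAC-seq libraries were made from sorted cells with 10 PCR cycles, per the labels' protocols. The authors deposited read counts per gene interval, with RPKM values beside them. The tools cutadapt, HISAT2 and HTSeq are listed in the submitters' processing notes. For the genome build, the annotation and the read-assignment rules, the sources used here give nothing. The deposited RPKM values served only to find the interval lengths.

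Of 37255 intervals, 29902 passed edgeR's filterByExpr over the 4 stages (minimum count 10, minimum total 15). Counts were scaled by TMM and fitted with edgeR 4.0.16 (robust quasi-likelihood) in R 4.3.3, with Benjamini-Hochberg adjustment. Alternatives used DESeq2 1.42.0, limma 3.58.1 and sva 3.50.0, and the steps were tested on simulated data. Named genes were the 12 nuclear genes of smallest p in each direction with a mean of at least 1 CPM, 1 per set of overlapping intervals and without predicted or clone-named loci. To these were added up to 5 such genes per direction without overlap between arms, and up to 2 members of each list per direction; list members beyond that rule were chosen for their known role after their values were seen. The comparison and the gene lists were chosen with earlier results of these data known. Single library values were tested by exact two-sided permutation of 11440 assignments. Deposited starts plus 1 equal GRCm38.p6 starts for 70.4% of the 32320 shared names, and positions are given 1-based. Some genes that the rule names are not reported here.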

Additional observations from a re-analysis of the deposited data

Results flagged for a closer look

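Of 66 group checks, 14 had a library farther from the rest of its arm than Dixon's 95% limit, which chance alone passes in about 1 in 20 groups. Among library measures, onset replicate 2 had 65.2 M total reads, naïve replicate 2 had 15.1 M nuclear reads (next 8.17), and presymptomatic replicate 4 scored 121 on the third principal component (next 9.12). Peak replicate 3 stood apart from the symptomatic arm in its receptor gene share (0.508%, next 0.295%), its score on the first component (102, next 0.283) and its X-linked share (8.47%, next 4.87%).

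Among named genes, in CPM, naïve replicate 4 was high for Polr1b (10.4, next 6.23) and Plagl2 (4.85, next 2.80). Naïve replicate 3 was high for Dsc3 (28.3, next 17.8) and Pabpc4l (9.73, next 4.22). Onset replicate 3 was high for Gnat1 (24.2, next 11.3), presymptomatic replicate 4 for Vmn2r111 (12.6, next 6.74), peak replicate 3 for Mup20 (7.07, next 5.61) and peak replicate 4 for Mir193a (3.11, next 2.01).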

How the results depend on the processing

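In all 35 alternatives to the pooled comparison and 54 to the stage comparisons, 0 genes were called. The lowest adjusted p was 0.0875 for peak minus onset, without naïve 5, and 0.196 for the pooled comparison, under total counts (1214 higher and 91 lower at an unadjusted p under 0.05, median of all genes 0.20). Leaving out each library gave 770 to 2811 genes at an unadjusted p under 0.05, with the ends without naïve 3 and without peak 3. The other alternatives gave 823 (without the libraries numbered 16 and 17) to 1697. With a replicate block edgeR called 0 genes, with 1358 at an unadjusted p under 0.05. Of 21 same-number pairs 6 had r over 0.1 (-0.342 to 0.373). Such correlations cannot show whether the numbers pair the libraries, because they also follow other differences between libraries. Genes without overlap numbered 6 after thinning, 1 among intervals of at least 2000 bp and 3 to 21 with a library left out. Mir193a was not tested after thinning or among intervals of at least 2000 bp. No log2 fold change of the 25 genes taken by smallest p or lack of overlap changed sign in 873 alternative values (members named from lists were not run). These genes were chosen in the same libraries that the alternatives refit, so kept signs were likely beforehand and are no independent check. Of 1365 list medians, 11 moved beyond their spread, all under total counts. That spread is the SD between libraries of the list's mean log2 CPM, in the arm where it is larger. Moves within it, such as rods from 0.52 to 0.26 without onset replicate 3, were not counted, so 11 does not show stable medians. With a library left out, the arm difference ran from -7.51 to 1.73 percentage points in mitochondrial share, -12 to 11.5 in the second component, -14.2 to -4.48 M total reads and -50.4 to -19.2 in the first component. The exact permutation p for total reads was 0.0154 without onset 2, and for the first component 0.0438 without peak 3. Intervals within 1 log2 unit covered 64.1% of genes, which bounds what these depths resolve.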

Other observations

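The pattern of Mylip, high in onset replicate 1, peak replicate 1 and peak replicate 3, was looked for in other genes after its values were seen. Over 16 libraries and 25950 genes, the Pearson correlations of log2 CPM with Mylip were highest for Cbr3 (0.937), Hsd17b2 (0.921), Polr1b (0.881) and Mettl5 (0.826). These describe libraries that also differ in depth. Hsd17b2, a steroid dehydrogenase, had 60.0, 61.8 and 50.1 CPM in the 3 libraries and 13.9 to 26.8 CPM in the other 13. Mettl5, an RNA methyltransferase, had 13.4, 12.9 and 6.75 CPM, against 0.892 to 4.49 CPM. Their log2 fold changes were 0.84 ± 0.27 and 1.17 ± 0.39, with 0 of them called. The genes lie on chromosomes 13, 16, 8, 2 and 2.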
